A study of Mus musculus with 2 samples.

Results

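The miR-148 and miR-152 family consists of 3 mouse microRNA (miRNA) genes, Mir148a, Mir148b and Mir152, which were taken by their GENCODE M21 gene names from the 2202 miRNA genes counted. All 3 were found, and each had at least 10 counts in both libraries, the level at which a gene is called measured here. The tissue was the left cerebral cortex. It came from B6CASTF1/J males, F1 hybrids of C57BL/6J and CAST/EiJ, at 25 days of age. The samples form 1 group of 2 biological replicates with 1 small-RNA library each, and no treatment or genotype was varied. The questions are therefore how abundant each member was and how far the replicates differed.

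A miRNA is cut from a hairpin transcript, and its guide strand leads Argonaute to messenger RNAs that pair with its seed, bases 2 to 8. Members of a family share the seed and hence can bind the same sites. The miR-148 and miR-152 family is known for targeting the DNA methyltransferase Dnmt1. Mir148a is also known as an abundant miRNA of liver and pancreas.

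The mature sequences are shown because they define the family and because its members must be told apart by a few bases. They were taken from RefSeq (GRCm38.p6), where all 3 genes were matched. The guide arms, which come from the 3′ side of the hairpin, are given 5′ to 3′ with the seed in capitals.
miR-148a-3p: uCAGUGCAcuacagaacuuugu
miR-148b-3p: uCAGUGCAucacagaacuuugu
miR-152-3p: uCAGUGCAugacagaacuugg

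The first 8 bases were identical in all 3. Counted from base 1 of the 5′ end, with miR-148a-3p as reference, miR-148b-3p differed by C9U and U10C over 22 bases. Over the 21 bases compared, miR-152-3p differed from miR-148a-3p by C9U, U10G and U20G. Mir148a and Mir148b thus share their last 12 bases, while Mir152 ends differently. Mir148b and Mir152 in turn share their first 9 bases. Over the 21 bases compared, miR-152-3p differed from miR-148b-3p by C10G and U20G alone. Counted this way, miR-148b-3p was as close to miR-152-3p as to miR-148a-3p, at 2 differences each. No other gene among the 1058 with a mature sequence in the table carried this seed.

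The partner arms, from the 5′ side, were less alike when compared base by base from the 5′ end. They are shown with bases 2 to 8 in capitals.
miR-148a-5p: aAAGUUCUgagacacuccgacu
miR-148b-5p: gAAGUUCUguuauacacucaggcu
miR-152-5p: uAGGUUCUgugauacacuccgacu

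Mir148a and Mir148b also shared bases 2 to 8 on this arm, whereas Mir152 carried A3G. Compared from base 1 without gaps over 22 bases, miR-148a-5p matched miR-148b-5p at 13 positions and miR-152-5p at 12. The 24-base arms miR-148b-5p and miR-152-5p matched at 19 of 24. As miR-148a-5p has only 22 bases, its later bases were compared out of register. Its last 11 bases, from base 12, recur unchanged from base 14 of miR-152-5p. The counts without gaps therefore do not rank the arms by likeness. The files count reads per gene, so reads of the 2 arms were not separated.

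The hairpins show how the arms lie, with both mature arms in capitals.
Mir148a: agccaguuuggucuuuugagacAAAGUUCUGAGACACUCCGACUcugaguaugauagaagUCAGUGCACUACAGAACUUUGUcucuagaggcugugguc
Mir148b: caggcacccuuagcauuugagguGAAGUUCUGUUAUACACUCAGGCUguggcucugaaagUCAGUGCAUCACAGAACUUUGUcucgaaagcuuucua
Mir152: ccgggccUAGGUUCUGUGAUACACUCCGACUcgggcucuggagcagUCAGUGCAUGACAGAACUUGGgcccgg

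The minimum free energy of the predicted fold (RNAfold) was -43.5 kcal/mol for the 73-base Mir152 hairpin, -41.0 for the 99-base Mir148a hairpin and -30.9 for the 97-base Mir148b hairpin. In these folds the guide arm paired with the partner arm at 18 of 21 bases in Mir152, at 17 of 22 in Mir148a and at 15 of 22 in Mir148b. Mir148b, the most abundant member in both libraries, had the least stable predicted fold of the 3. With 3 genes this is a description only.

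The family's loci are related as well. Mir148b (ENSMUSG00000065560.1; mm10 chr15:103285125-103285221, plus strand) lies in intron 1 of Copz1, and Mir152 (ENSMUSG00000065515.1; chr11:96850393-96850465, plus strand) in intron 1 of Copz2. Both host genes encode a zeta subunit of the COPI coat, which covers vesicles on their way from the Golgi to the endoplasmic reticulum, and both miRNAs lie on the host's strand. The Copz1 intron is 16159 bases long and Mir148b starts 12183 bases after the upstream exon. The Copz2 intron has 676 bases and Mir152 starts 396 bases after the upstream exon. Mir148a (ENSMUSG00000065505.1; chr6:51269812-51269910, minus strand) overlaps no annotated gene, and its nearest protein-coding gene is Nfe2l3 at 163 kb.

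**Figure D1:**
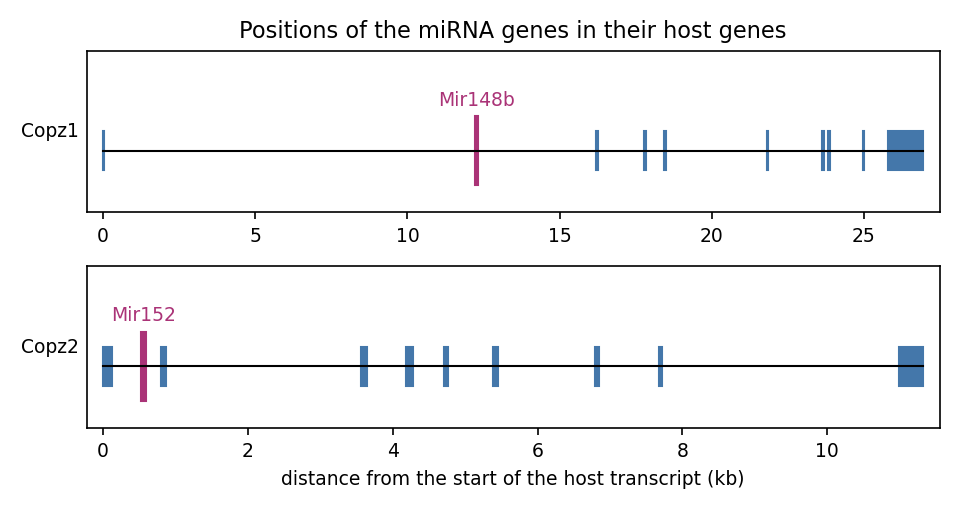
Exons (blue boxes) of a protein-coding transcript each of Copz1 and Copz2 and the hairpins of Mir148b and Mir152 (purple), with the distance from the transcript start in kb on the x axis of each panel. Both miRNA genes lie in the first intron, which has 16159 bases in Copz1 and 676 in Copz2.

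Genes of the same 2 families flank each member. The nearest gene of the NFE2 transcription factor family was Nfe2 at 26.7 kb from Mir148b, Nfe2l1 at 20.4 kb from Mir152 and Nfe2l3 at 163 kb from Mir148a. A chromobox gene of heterochromatin protein 1 lay close in each case as well: Cbx5 at 45.3 kb from Mir148b, Cbx1 at 41.8 kb from Mir152 and Cbx3 at 200.4 kb from Mir148a. Both families were picked after the flanking genes had been seen. Within 100 kb of a member the annotation holds 1 other counted miRNA gene, Mir6963 near Mir148b, which had 0 counts in both libraries.

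The libraries held 2388379 counts on the genes' own strand in replicate 1 and 4447390 in replicate 2. Levels are given as CPM, the counts of a gene per 1000000 of these counts. At these depths 3 counts, the floor used here, are 1.26 and 0.675 CPM, so all members stood well above it. Reads matching several loci, 48.6% and 52.8% of mapped reads, were assigned to no gene. Neuronal markers were abundant in both libraries (summed 89367 and 77420 CPM over 11 genes, none at 0 in both). Of the 8 measured, 6 were higher and 2 lower past the test described below. Among all measured genes 34.2% were called higher and 56.9% in either direction. Mir132 held the largest part of the sum, at 60392 CPM in replicate 1 and 37793 in replicate 2, and was among the lower genes. The falling sum therefore does not describe the list as a whole. The copies of miR-124, which defines neurons, had at most 9 counts each. Reads matching several of these copies would be among those assigned to no gene, so the counts do not give the level of miR-124. Intervals cover counting error only, not the spread between animals or libraries. Amplified reads that carry no molecular identifiers can repeat a molecule, so the intervals may be too narrow even for that error.

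The family was a minor part of the cortical profile. Its 3 genes had 360 counts in replicate 1 and 1314 in replicate 2, which is 0.0151% and 0.0295% of all counts. Summed levels were 151 CPM (95% exact Clopper-Pearson interval 136 to 167) and 295 CPM (280 to 312), a mean of 223 ± 102 CPM (SD, n = 2). The intervals of the libraries do not overlap, and replicate 2 was higher.

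Mir148b was the most abundant member. It had 167 counts in replicate 1 and 761 in replicate 2, or 69.9 CPM (exact interval 59.7 to 81.4) and 171 CPM (159 to 184), with a mean of 121 ± 71.6 CPM (SD, n = 2). That placed it at rank 198 of 2202 genes by mean level, close to the median of the 392 measured genes (121 CPM).

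Mir148a had 86 and 338 counts, which are 36.0 CPM (exact interval 28.8 to 44.5) in replicate 1 and 76.0 CPM (68.1 to 84.5) in replicate 2. Its mean was 56.0 ± 28.3 CPM (SD, n = 2), at rank 235. As for Mir148b, replicate 2 was the higher library and the intervals do not overlap.

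Mir152 had 107 and 215 counts, which are 44.8 CPM (exact interval 36.7 to 54.1) and 48.3 CPM (42.1 to 55.3). Its mean was 46.6 ± 2.51 CPM (SD, n = 2), at rank 243. Here the libraries' intervals overlap, and the gene held rank 241 in each of them. All 3 members had 0 counts on the opposite strand in both libraries.

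**Figure D2:**
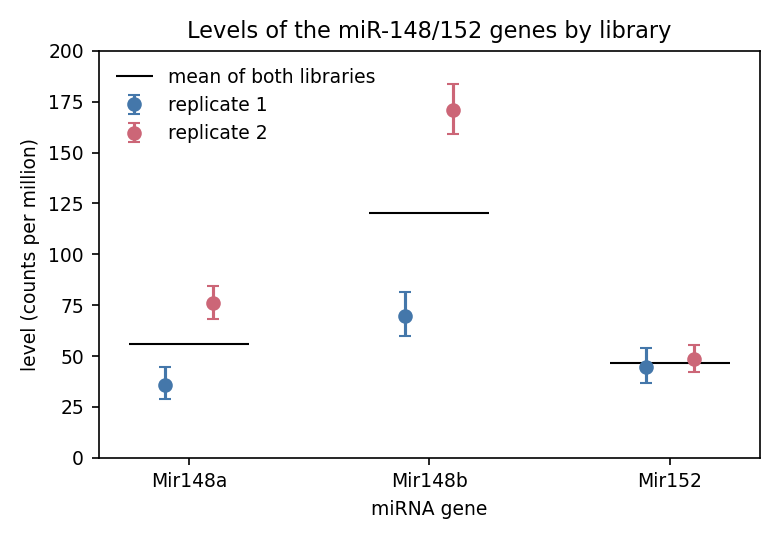
Level of each member (y axis, CPM) in replicate 1 (blue) and replicate 2 (red), with exact 95% intervals as bars and the mean of both libraries as a black line. Mir148a and Mir148b lie higher in replicate 2, at 76.0 and 171 CPM against 36.0 and 69.9, while both libraries place Mir152 between 44.8 and 48.3 CPM.

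Mir148b led in both libraries, but the order of the other members differed. The count of Mir148b over that of Mir148a was 1.94 in replicate 1 (exact interval 1.49 to 2.55) and 2.25 in replicate 2 (1.98 to 2.57). Over Mir152 it was 1.56 (1.22 to 2.01) and 3.54 (3.04 to 4.14). Mir148a stood at 0.804 of Mir152 in replicate 1, where the interval of 0.598 to 1.08 includes equal levels, and at 1.57 of it in replicate 2 (1.32 to 1.87). The ranking of Mir148a against Mir152 was therefore not shared by the libraries. A read covers a whole mature miRNA, so counts were not divided by length. Per base of annotated hairpin the lead of Mir148b over Mir152 in replicate 1 falls to 1.17, with an interval of 0.916 to 1.51 that includes equal levels.

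Between the replicates the family split into a pair that was higher in replicate 2 and a member that showed no clear difference. Mir148b was 2.45-fold higher (exact interval 2.07 to 2.91) and Mir148a 2.11-fold (1.66 to 2.71), while Mir152 was at 1.08-fold (0.852 to 1.37). Each gene's counts were compared by a two-sided exact conditional binomial test given the library totals, adjusted by Benjamini-Hochberg over all 392 measured genes. The log2 ratio of replicate 2 over replicate 1 was 1.29 for Mir148b (counting SE 0.123, adjusted p = 2.12e-29 in the exact test) and 1.08 for Mir148a (SE 0.174, adjusted p = 1.53e-10 in the exact test). For Mir152 it was 0.11 (SE 0.171), which did not pass (adjusted p = 0.65 in the exact test).

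These calls were common in the data. Of the 392 measured genes 56.9% passed the same test, and 34.2% passed with a higher level in replicate 2, against 2 of 3 members on both counts. Of the 223 genes called, 134 were higher in replicate 2, and of the 226 called with libraries scaled by mapped reads 107 were. By size, the 2 members stood further out: 27 of the 392 genes (6.89%) had a log2 ratio at least as high as Mir148a and 18 (4.59%) at least as high as Mir148b, the gene itself included. For Mir152 it was 183 genes (46.7%). The median log2 ratio was 1.08 over the 3 members, which is the value of Mir148a, and 0.06 over all measured genes.

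The binomial test compares these libraries and covers counting error alone, and with 1 library per mouse the animal and the library cannot be told apart. When the spread between the libraries was allowed for (edgeR's exact test with their common dispersion, biological coefficient of variation 0.311), no member passed. The adjusted p was 0.908 for Mir148b and 1 for both other members (unadjusted p = 0.0532, 0.112 for Mir148a and 0.875 for Mir152, all in edgeR's exact test), and 0.765% of the measured genes passed. That dispersion was estimated from the same libraries, 1 against 1, so few genes could pass, and the test does not show that the members were alike.

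**Figure D3:**
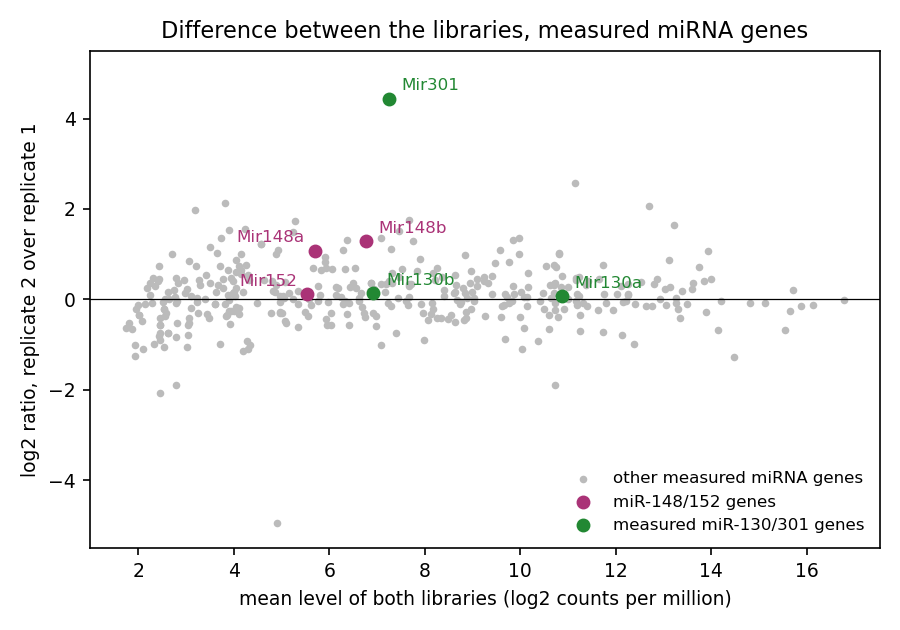
Log2 ratio of replicate 2 over replicate 1 (y axis) against the mean log2 CPM of both libraries (x axis) for the 392 measured genes (grey), with the family in purple and the measured miR-130 family genes in green. Mir148b (1.29) and Mir148a (1.08) lie in the upper part of the cloud, Mir152 (0.11) and Mir130b (0.13) near 0, and Mir301 (4.44) above all other genes.

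The make-up of the family differed between the libraries as well, and this measure does not depend on how libraries are scaled. Mir148b gave 46.4% of the family's counts in replicate 1 (exact interval 41.1 to 51.7%) and 57.9% in replicate 2 (55.2 to 60.6%). Mir152 gave 29.7% (25.0 to 34.7%) and 16.4% (14.4 to 18.5%), and Mir148a 23.9% (19.6 to 28.6%) and 25.7% (23.4 to 28.2%). The share of Mir152 was thus lower in replicate 2, while the intervals for Mir148a overlap.

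The 3 pairs of members were compared between the libraries by two-sided Fisher's exact tests, adjusted over these pairs. The ratio of Mir148b to Mir152 was 2.27 times as high in replicate 2 (interval 1.68 to 3.05, adjusted p = 1.06e-07 by Fisher's exact test). That of Mir148a to Mir152 was 1.96 times as high (1.39 to 2.76, adjusted p = 0.000108 by Fisher's exact test). Mir148b against Mir148a did not pass, at 1.16 times (0.856 to 1.56, adjusted p = 0.329 by Fisher's exact test). Again these tests cover counting error only. Among all 76636 pairs of measured genes, 17.2% had a ratio that differed between the libraries by at least as much as that of Mir148b to Mir152, and 25.0% by at least as much as that of Mir148a to Mir152.

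**Figure D4:**
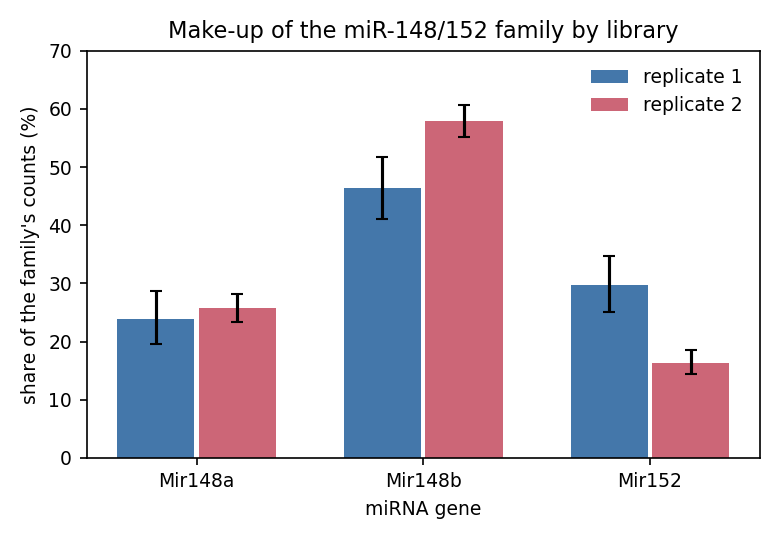
Share of the family's counts (y axis, %) given by each member in replicate 1 (blue) and replicate 2 (red), with exact 95% intervals as bars. Mir148b gives 46.4% in replicate 1 and 57.9% in replicate 2, and Mir152 gives 29.7% and 16.4%, while the intervals of Mir148a overlap.

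Other measures differed between the libraries too. Replicate 2 was 1.86 times as deep, and 18.2% of its reads were unmapped against 31.6% in replicate 1. The endothelial and mural markers summed to 16755 CPM in replicate 1 and 28009 in replicate 2, with 3 of 3 genes measured, 1 higher and 2 lower past the test and none at 0. Oligodendrocyte markers summed to 2726 and 3556 CPM (3 of 3 measured, 1 higher). Microglial and leukocyte markers summed to 1513 and 1639 CPM (4 of 4 measured, 1 higher and 1 lower), and red-cell markers to 134 and 144 CPM (3 of 3 measured, 1 higher). These counts of calls stand beside 34.2% called higher and 56.9% called in either direction among all 392 measured genes. The part of the marker lists in the differences of Mir148a and Mir148b was not tested. In bulk tissue, fewer cells of a type and less RNA per cell cannot be told apart.

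Because Mir148a is known from liver and pancreas, miRNAs of liver, pancreas and gut were read beside it. Over the 9 listed genes in the files the sums were 179 CPM (replicate 1) and 217 CPM (replicate 2). Of the 5 measured, 1 was higher past the test and none lower, beside the 34.2% of all measured genes called higher, and Mir215 was at 0 in both libraries. The median log2 ratio of these 5 was 0.43, against 0.06 over all measured genes, and it was highest for Mir192 at 0.75 (adjusted p = 0.0469 in the exact test), named after its value was seen. Their part in the difference of Mir148a was not tested. The leading genes were Mir375, an islet miRNA (86.7 and 103 CPM), and Mir122, the main miRNA of hepatocytes (54.0 and 57.6 CPM). The log2 ratios of this pair, the lowest of the 5, were 0.25 and 0.09 and did not pass, with adjusted p = 0.065 and 0.684 in the exact test.

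The miR-130 family, counted here with Mir301 and Mir301b, overlaps the members in its seed: bases 2 to 7 of the guide arms printed here equal bases 3 to 8 of theirs. They are shown for this overlap, with bases 2 to 8 in capitals. The guide arm of Mir301b was missing from the sequences used, so it is neither printed nor part of the count below.
miR-130a-3p: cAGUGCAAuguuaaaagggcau
miR-130b-3p: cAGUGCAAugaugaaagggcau
Mir301, 3p arm: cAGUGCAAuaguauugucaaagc

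Among all mature sequences of other genes in the table, 7 had these 6 bases in that place, 4 of them in this family (Mir130c is the other) and 3 from Mir721, Mir6341 and Mir6389, which had 0 counts. The miR-130 family summed to 1988 CPM in replicate 1 and 2776 in replicate 2, against 151 and 295 CPM for the 3 members. Most of this came from Mir130a, at 1838 and 1935 CPM. Mir130b had 116 and 127 CPM, below Mir148b (171 CPM) in replicate 2. Mir301 had 78 counts (32.7 CPM) in replicate 1 and 3156 counts (710 CPM) in replicate 2. In replicate 1 it was thus below all 3 members, though its level lay within the exact interval of Mir148a (28.8 to 44.5 CPM). In replicate 2 it was above all 3.

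Past the test 2 of the 3 measured miR-130 family genes were higher in replicate 2 and none lower, set against the 34.2% of all genes above. Mir301 had a log2 ratio of 4.44 (counting SE 0.165), and Mir130a one of 0.07 (adjusted p = 0.0114 in the exact test) that did not pass under TMM (adjusted p = 0.666 in the exact test) or DESeq2 scaling (0.864) and was -0.05 when libraries were scaled by mapped reads. Mir130b, at 0.13, did not pass (adjusted p = 0.306 in the exact test). Mir301b had 3 and 17 counts, under the minimum for the test, and Mir130c had 0 in both libraries.

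For each member the 3 measured genes with the smallest distance in log2(CPM + 1) over the 2 libraries were listed. For Mir148a these were Mir24-2 (39.8 and 64.5 CPM), Mir1193 (43.5 and 83.2 CPM) and Mir345 (45.2 and 80.3 CPM), at distances of 0.27 to 0.33. For Mir148b they were Mir376b (84.6 and 217 CPM), Mir539 (73.7 and 119 CPM) and Snord43 (52.8 and 131 CPM), the last counted among miRNA genes under that symbol, at 0.44 to 0.56. For Mir152 they were Mir491 (47.3 and 47.4 CPM), Mir7047 (51.5 and 47.4 CPM) and Mir449a (38.1 and 43.2 CPM), at 0.08 to 0.28. No member was among the nearest genes of another. With 2 libraries such a distance says only that levels were alike in both.

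How the authors treated mismatches in alignment was not given. Only stretches that the guide arms share exactly with other sequences were measured. The longest stretch of a member's guide arm found in any other RefSeq hairpin was 12 bases, shared by Mir148a and Mir148b, and the longest for Mir152 was 11 bases. In other annotated spliced transcripts, on either strand, it was 15 bases for Mir148a and Mir148b and 17 for Mir152. Introns and intergenic sequence were not searched. Exact stretches cannot show how well reads of the members were told apart if mismatches were allowed. Base by base, miR-148a-3p and miR-148b-3p were identical at 20 of 22 positions, and miR-148b-3p and miR-152-3p at 19 of 21.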

How the data were processed

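Small-RNA libraries of 2 mouse cortices were analysed, 1 per animal, per the labels. The authors deposited raw read counts per miRNA gene, made on mm10 with GENCODE M21, per the readme files; aligner and counter: not given in the sources used here. Own-strand counts were used (the reading of the columns rests on their values), and entries naming no gene (unmapped, multimapping, no feature, ambiguous) stayed out of totals. The 3 members were matched by symbol, and the members and lists were chosen with earlier results of these data known.

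CPM, exact intervals (95%) and the exact conditional binomial test over genes with 10 or more counts in both libraries (adjusted p under 0.05) were computed with SciPy 1.17.1. The test was tried on simulated counts that held counting error only, so that trial does not cover the spread between real libraries. edgeR 4.0.16 gave TMM factors and an exact test, since its quasi-likelihood test has no contrast in 1 group. DESeq2 1.42.0 gave alternative size factors. Hairpins were folded with RNAfold (ViennaRNA 2.7.2). Count minimums of 1 and 100, both strands, other totals, length scaling and a pseudocount of 0.1 in place of 1 were tried. Genes named are the members, the miR-130 family list, the 3 nearest genes to each member and miRNA genes within 100 kb. The top neuronal marker and the top 2 of the liver, pancreas and gut list were named as well.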

Additional observations from a re-analysis of the deposited data

How the results depend on the processing

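The log2 ratios of Mir148a and Mir148b kept their direction and stayed past the binomial test under TMM, DESeq2 and mapped-read scaling, without the most abundant gene in the totals, with a count minimum of 1 and with both strands together. Scaling by mapped reads lowered all log2 ratios by 0.13 and turned that of Mir152, which did not pass, to -0.0171. In edgeR's exact test with the common dispersion 0 members passed, at log2 ratios of 1.29 for Mir148b and 1.08 for Mir148a. With a minimum of 100 counts 1 member passed, as Mir148a had 86 counts in replicate 1 and was not tested. Mean levels per mapped read were lower for all 3 members, at 23.3 CPM for Mir148a, 49.9 for Mir148b and 19.6 for Mir152, since the total then includes reads with several matches. Counting both strands put Mir152 at 50.5 CPM, through a smaller library total and not through added reads of the gene. The log2 ratio of Mir148a to Mir152, 0.17 over both libraries, was -0.27 per hairpin base and ranged from -0.32 to 0.65 with either replicate left out. All 9 nearest genes were kept with a pseudocount of 0.1. Counting both strands cannot move the make-up of the family, as the members had 0 counts on the opposite strand, so it has no informative alternative. No paired analysis was possible because there is 1 group. Leaving out a replicate gives no value for a comparison of the replicates. At 86 to 761 counts per member, counting alone gives log2 ratios an SE of 0.123 to 0.174, so the precision is limited for Mir148a and Mir152.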
